A study of Homo sapiens with 8 samples.

Results

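The mRNA of the nuclear factors through which β-catenin acts was examined in 2 human colorectal cancer cell lines, HT29 and SW480, after depletion of peroxiredoxin II (PrxII, gene PRDX2), a peroxidase that removes hydrogen peroxide. The members were the 4 TCF/LEF transcription factors TCF7, TCF7L1, TCF7L2 and LEF1, and 4 genes of the BCL9 and PYGO coactivators, BCL9, BCL9L, PYGO1 and PYGO2. They were taken by symbol and not by a cut on their values, but with earlier results of these data known. All 8 were among the 25192 gene symbols of the tables. HT29 cells were grown in McCoy's medium and SW480 cells in RPMI medium, and each line received either control siRNA or PRDX2 siRNA for 36 h. Each of the 4 groups held 2 libraries, made in duplicate per the labels, which do not say whether duplicates were separate cultures, so p-values measure only the spread between these libraries, which may be technical. Both lines carry truncated APC, also in the control groups, each line stands for 1 tumor, and the labels do not say which PRDX2 siRNA sequence was used. In short, no member passed the test after PrxII depletion in either line, while between the control cells of the lines TCF7L2, BCL9 and PYGO2 were lower in SW480, and LEF1, TCF7L1 and PYGO1, which were at or near 0 in HT29, had higher counts in SW480.

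β-catenin has no DNA-binding domain of its own. TCF/LEF factors carry it to target genes, where they otherwise recruit corepressors of the TLE/Groucho family. BCL9 or BCL9L binds the armadillo repeats of β-catenin and ties it to a PYGO protein, whose PHD finger reads methylated histone tails. In cells with truncated APC the destruction complex fails to remove β-catenin, so these nuclear partners work without a Wnt ligand. In the intestinal epithelium TCF7L2 is the best known TCF of the crypt, TCF7L1 is mostly known as a repressor, and TCF7 and LEF1 are themselves known Wnt target genes as well as T cell factors.

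The genes lie on 7 chromosomes in GRCh37, the build of the tables, by the GENCODE annotation. TCF7 is at chr5:133450372-133487556, TCF7L1 at chr2:85360515-85537510, TCF7L2 at chr10:114710006-114927437 and LEF1 at chr4:108968701-109090112. BCL9 is at chr1:147013271-147098017, BCL9L at chr11:118764584-118796635, PYGO1 at chr15:55831082-55881145 and PYGO2 at chr1:154929502-154936329. Counts are per gene, over all its refGene transcripts, 13 of them for TCF7L2, 6 for TCF7, 4 for LEF1 and 1 for each of the other 5. The promoter windows that follow are in another build, and their coordinates cannot be set beside these.

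LEF1 is shown first because it had the largest fitted difference between the 2 lines among the members. TCF7 and TCF7L2 are shown because a TCF/LEF core motif was found upstream of one of their start sites. The windows hold the 250 bases before an annotated start in RefSeq (GRCh38.p14), 5′ to 3′ on the gene's own strand, and capitals mark the motif where one was found. The 4 forms of the core motif were searched on both strands, and a given start can match only 1 of them on a strand: CTTTGAA, held by 3.8% of all promoter windows of this length, CTTTGAT, held by 2.26%, CTTTGTA, held by 2.35%, and CTTTGTT, held by 4.5%.
LEF1, chr4:108166302-108166551, minus strand: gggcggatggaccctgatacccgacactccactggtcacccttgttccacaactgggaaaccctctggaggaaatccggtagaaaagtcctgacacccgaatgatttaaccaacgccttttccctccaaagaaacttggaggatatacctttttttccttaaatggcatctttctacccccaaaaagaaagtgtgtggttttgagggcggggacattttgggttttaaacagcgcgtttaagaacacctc
TCF7, chr5:134123368-134123617, plus strand: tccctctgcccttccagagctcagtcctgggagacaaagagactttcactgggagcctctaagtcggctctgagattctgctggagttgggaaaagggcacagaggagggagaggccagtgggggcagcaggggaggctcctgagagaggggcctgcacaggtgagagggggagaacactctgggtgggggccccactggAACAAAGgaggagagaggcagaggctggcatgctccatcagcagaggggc
TCF7L2, chr10:113126383-113126632, plus strand: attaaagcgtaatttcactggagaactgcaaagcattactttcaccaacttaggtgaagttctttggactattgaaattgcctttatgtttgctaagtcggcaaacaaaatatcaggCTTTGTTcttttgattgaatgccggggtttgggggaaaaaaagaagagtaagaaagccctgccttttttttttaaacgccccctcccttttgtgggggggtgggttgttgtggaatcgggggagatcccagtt
The LEF1 window holds none of these letters, the TCF7 window holds CTTTGTT on the opposite strand, beginning 50 bases before the start, and the TCF7L2 window holds CTTTGTT on the gene's strand, beginning 133 bases before the start. Of the members, 7 matched the table with 11 windows, and 2 of these windows held a motif, against 4199 (12%) of all 35116 windows. The TCF7 and TCF7L2 windows shown belong to 1 of 2 and 1 of 3 starts in the table, and the other windows of these 2 genes held no motif. A match of letters is not a binding site.

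The targeted gene was checked first. The HT29 libraries with control siRNA held PRDX2 at 153 and 159 CPM (counts scaled to library size by TMM), and those with PRDX2 siRNA at 85.8 and 86.2 CPM. In SW480 the values were 202 and 237 CPM with control siRNA, then 66.9 and 68.0 CPM with PRDX2 siRNA. The log2 fold change was -0.87 ± 0.05 (SE, n = 2 per group, edgeR adjusted p = 1.15e-09) in HT29 and -1.70 ± 0.12 (SE, n = 2 per group, edgeR adjusted p = 0.000618) in SW480. CTNNB1, which encodes β-catenin, did not pass at the mRNA level in HT29 (log2 fold change 0.02, edgeR adjusted p = 0.825) or in SW480 (-0.23, edgeR adjusted p = 0.108). In SW480 it passed in 5 of 13 alternatives, with all 8 libraries (-0.22, edgeR adjusted p = 0.0154), with a correction for transcript GC content (-0.16, without and with a term for replicate number, edgeR adjusted p = 0.0485 and 0.0383) and without control replicate 1 or 2 (-0.24 and -0.22, edgeR adjusted p = 8.7e-25 and 2.64e-19). Between control cells it was higher in SW480 by 2.74 on the log2 scale (edgeR adjusted p = 8.04e-12). All 9 epithelial markers were detected in every group, with a summed level of 12381 to 13769 CPM in HT29 and 6397 to 7538 CPM in SW480, but KRT20 stood below 1 CPM in SW480 against 463 to 627 CPM in HT29. The 6 markers of T cells, which use TCF7 and LEF1, summed to 3.02 to 3.08 CPM in HT29 with control siRNA, 2.83 to 3.15 with PRDX2 siRNA, 12.2 to 14.7 in SW480 with control siRNA and 7.03 to 8.07 with PRDX2 siRNA. Of these markers 1, 2, 4 and 3 were detected in the 4 groups, and CD2 and PTPRC were at 0 in all 8 libraries. CD3D and CD3E were at 0 in HT29 and reached at most 0.112 and 0.103 CPM in SW480. CD4 made up most of the sum, at 10.3 and 13.5 CPM in SW480 control cells and 5.54 and 5.74 CPM after PRDX2 siRNA (log2 fold change -1.07, edgeR adjusted p = 0.0325), against 3.02 and 3.08 CPM in HT29 control cells (SW480 minus HT29 1.96, edgeR adjusted p = 4.79e-06). CD8A stood at 1.12 to 1.85 CPM in SW480 control cells and at 0 in HT29 control cells. It passed the filter only through SW480, so its higher level there was set by the filter and is given as a description. The part of these markers in the LEF1 and TCF7 values was not tested.

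The first comparison was between the control cells of the 2 lines, which gives the mRNA levels of these genes in each line before PrxII depletion. Of the 5 members that passed the filter of 10 counts in 2 libraries in both lines, TCF7L2, BCL9 and PYGO2 were lower in SW480, and TCF7 and BCL9L did not pass the test. By edgeR on all 8 libraries 73.2% of 14772 genes were called, so a member that differed was no exception among genes. LEF1, TCF7L1 and PYGO1 passed the filter only through SW480, PYGO1 only through its libraries with PRDX2 siRNA, so their higher level in SW480 was set by the filter and is given as a description. With these, 6 of the 8 were called, and 5 with only the 4 control libraries, where PYGO1 did not enter the test. Line, medium and any separate preparation or sequencing of the HT29 and SW480 libraries cannot be told apart in this comparison. Fewer cells and less RNA per cell cannot be told apart either.

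LEF1, an activator in most Wnt settings, had 1 and 0 expected counts in the HT29 control libraries and 676 and 832 in the SW480 control libraries. The ratio of the summed counts was 1604, with an exact 95% counting interval of 287 to 63404, because the HT29 sum was a single count. TCF7L1 stood at 0.743 and 0.431 CPM in HT29 and at 9.60 and 10.7 CPM in SW480. Its fitted log2 difference was 4.09, given as a description because TCF7L1 passed the filter only through SW480. The HT29 libraries held only 7 and 4 counts of TCF7L1, and 3 counts correspond to 0.295 to 0.339 CPM.

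TCF7L2 was at 71.6 and 76.6 CPM in HT29 with control siRNA and at 22.3 and 27.3 CPM in SW480. The difference of -1.57 ± 0.12 on the log2 scale (SE, n = 2 per group, edgeR adjusted p = 3.68e-07) left the groups far apart. TCF7 was close in the 2 lines, at 89.9 and 93.3 CPM in HT29 and 83.6 and 88.8 CPM in SW480. Its difference was -0.08 on the log2 scale (95% interval -0.25 to 0.09, edgeR adjusted p = 0.35), and it passed only without SW480 control replicate 2 (-0.14, edgeR adjusted p = 0.0497).

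Per transcript length, the 4 TCF/LEF factors summed to 105 ± 3.05 TPM in HT29 control cells and 146 ± 7.58 TPM in SW480 control cells (SD, n = 2 each). In HT29, TCF7 made up 62.7% ± 0.518 and TCF7L2 36.9% ± 0.726 of that sum, LEF1 0.0293% ± 0.0414 and TCF7L1 0.408% ± 0.167 (SD, n = 2). In SW480 control cells TCF7 made up 45.4% ± 0.855, LEF1 39.3% ± 0.0106, TCF7L2 9.78% ± 0.736 and TCF7L1 5.46% ± 0.108 (SD, n = 2). TCF7 thus led in both lines, with TCF7L2 next in HT29 and LEF1 next in SW480.

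**Figure D1:**
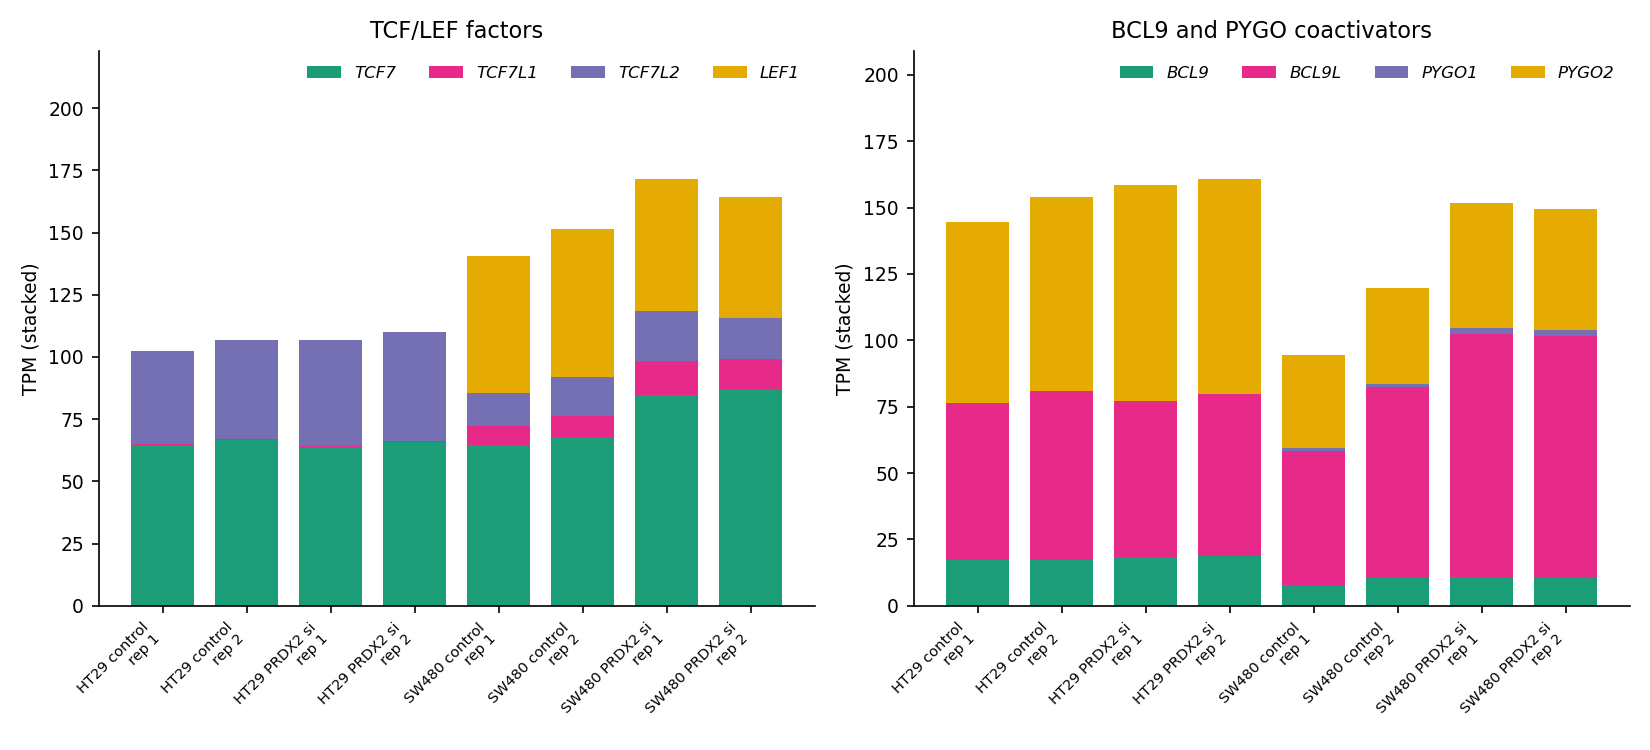
Stacked bars give the TPM of the 4 TCF/LEF factors (left) and of BCL9, BCL9L, PYGO1 and PYGO2 (right) in each of the 8 libraries, without error bars. In HT29 nearly all TCF/LEF TPM is TCF7 and TCF7L2, whereas in the SW480 control libraries LEF1 makes up 39.3% of it on average.

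Among the coactivators, BCL9 and PYGO2 were lower in SW480. BCL9 stood at 52.2 and 52.0 CPM in HT29 control libraries and at 21.8 and 28.5 CPM in SW480 control libraries, a log2 difference of -1.04 ± 0.12 (SE, n = 2 per group, edgeR adjusted p = 9.43e-06). PYGO2, the PYGO protein of most tissues, stood at 103 and 111 CPM against 48.1 and 49.9 CPM, a log2 difference of -1.12 ± 0.08 (SE, n = 2 per group, edgeR adjusted p = 1.71e-07). In both genes the groups did not overlap, but neither did they for TCF7, which was not called. The share of all genes without overlap was not counted in this comparison. PYGO1 had 0 counts in all 4 HT29 libraries and 6 in each SW480 control library. Set against 3 counts over the HT29 group, the ratio was 4.26. That ratio leaves out the counting error of the SW480 counts and is not a lower bound.

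BCL9L, the close relative of BCL9, was the coactivator whose libraries overlapped between the lines. It stood at 221 and 236 CPM in HT29 and at 171 and 246 CPM in SW480, so that the SW480 control libraries lay on both sides of the HT29 ones. The log2 difference was -0.12 (95% interval -0.41 to 0.17, edgeR adjusted p = 0.412). It was 0.12 without SW480 control replicate 1 (edgeR adjusted p = 0.0395) and -0.42 without SW480 control replicate 2 (edgeR adjusted p = 6.23e-07), so the direction of the BCL9L difference rested on which of these libraries was kept. Per transcript length BCL9L stood above BCL9 in both lines, with a mean TPM ratio of 3.55 in HT29 and 6.69 in SW480 control cells.

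The 2 SW480 control libraries stood apart from each other across genes, which touches each SW480 result that follows. The chi-square per degree of freedom between duplicates was 11.2 in that group and 1.43 to 2.13 in the other 3 groups. Across genes, the difference of replicate 1 minus replicate 2 had a Spearman rho of -0.72 with transcript GC content, against -0.13 to -0.20 in the other groups. Among the members, the log2 gap of replicate 2 over replicate 1 in the SW480 control group was 0.53 for BCL9L, whose transcript has the highest GC content of the 8 (64.9%), but 0.09 for TCF7 (58.6%) and 0.05 for PYGO2 (56.9%), next in GC content. It was 0.39 for BCL9 (53.3%), 0.16 for TCF7L1 and 0.29 for TCF7L2 (52.8% each), and 0.18 for LEF1 (48.9%). PYGO1, lowest in GC content (36.4%), had a gap of -0.12 on 6 counts in each library. Whether GC content shaped the gaps of these genes was not tested. The part of GC content in the changes after PrxII depletion was addressed only by the correction whose values are given beside them.

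In HT29, no TCF/LEF factor or coactivator passed the test after PrxII depletion. Of the 8 members 5 passed the filter of 10 counts in 2 libraries, and 0 of these were called by edgeR, where 17.6% of 12961 genes were called. At an unadjusted p under 0.05 there were 2, BCL9L and PYGO2, while DESeq2 called 0 and limma on log2(TPM + 1) called 1, PYGO2. The share of all genes at that unadjusted threshold was not counted, here or in the comparisons and lists that follow. Such counts therefore have no background and cannot be set beside the share called. The median log2 fold change of these 5 was 0.04, against 0.00 over all genes tested.

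With control siRNA HT29 held TCF7 at 89.9 and 93.3 CPM, against 85.7 and 89.3 CPM with PRDX2 siRNA, a log2 fold change of -0.07 (95% interval -0.18 to 0.03). TCF7L2 stood at 71.6 and 76.6 CPM with control siRNA and at 77.8 and 80.1 CPM with PRDX2 siRNA, a log2 fold change of 0.08 (95% interval -0.04 to 0.20).

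TCF7L1 and LEF1 were below the filter in HT29. TCF7L1 had 7 and 4 counts in control libraries and 9 and 8 after PRDX2 siRNA, a ratio of 1.54 with an exact counting interval of 0.68 to 3.64. LEF1 had 1 and 0 counts in control libraries and 5 and 4 after PRDX2 siRNA, a ratio of 8.97 with an exact counting interval of 1.24 to 393. LEF1 was thus near the floor of the libraries in both HT29 groups, and the intervals cover counting error only.

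The coactivators of HT29 gave changes of the same small size. PYGO2 stood at 103 and 111 CPM in control libraries and at 118 CPM in both libraries with PRDX2 siRNA, a log2 fold change of 0.14 ± 0.05 (SE, n = 2 per group, edgeR adjusted p = 0.0775). BCL9L stood at 221 and 236 CPM and then at 210 and 220 CPM, a log2 fold change of -0.10 ± 0.04 (SE, n = 2 per group, edgeR adjusted p = 0.137). These 2 calls moved with single libraries. PYGO2 passed without HT29 control replicate 2 (0.19, edgeR adjusted p = 0.0199), and BCL9L passed without HT29 control replicate 1 (-0.15, edgeR adjusted p = 0.0287). With GC correction PYGO2 gave 0.13 (edgeR adjusted p = 0.041) and BCL9L -0.06 (edgeR adjusted p = 0.261). BCL9 stood at 52.2 and 52.0 CPM and then at 53.6 and 53.9 CPM, with a log2 fold change of 0.04 (95% interval -0.09 to 0.17). PYGO1 stayed at 0 counts in every HT29 library.

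All 5 members tested in HT29 had groups that did not overlap. Of these, 3 were higher in both libraries with PRDX2 siRNA, which 29.9% of the genes tested were, and 2 were lower in both, which 27.4% were.

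In SW480, no member passed the test after PrxII depletion. All 8 passed the filter, and 0 were called by edgeR, where 3.3% of 14112 genes were called. At an unadjusted p under 0.05 there were 4 (TCF7, TCF7L1, BCL9L and PYGO2), with no share of all genes counted at that threshold. DESeq2 and limma on log2(TPM + 1) each called 0. PYGO1 passed the filter only through its libraries with PRDX2 siRNA, which had to be the higher ones, and is left out of the counts that follow. Of the other 7 members, 6 had a log2 fold change above 0 and LEF1 had one below 0, with a median of 0.30, against 0.00 over all genes tested. In 4 of the 7 both libraries with PRDX2 siRNA were higher than both control libraries, as in 29.6% of the genes tested, and in 1, LEF1, both were lower, as in 29.1%.

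TCF7 stood at 83.6 and 88.8 CPM in SW480 control libraries and at 105 and 106 CPM after PRDX2 siRNA, with a log2 fold change of 0.30 ± 0.11 (SE, n = 2 per group, edgeR adjusted p = 0.142). TCF7L1 stood at 9.60 and 10.7 CPM and then at 15.9 and 14.2 CPM, with 0.57 ± 0.18 (SE, n = 2 per group, edgeR adjusted p = 0.104). In both the groups lay apart, but the shift did not pass against the spread of SW480 libraries. LEF1 stood at 75.4 and 85.5 CPM and then at 71.2 and 65.9 CPM, with -0.23 ± 0.12 (SE, n = 2 per group, edgeR adjusted p = 0.268). TCF7L2 stood at 22.3 and 27.3 CPM and then at 32.9 and 26.7 CPM, overlapping between the groups, with 0.26 ± 0.16 (SE, n = 2 per group, edgeR adjusted p = 0.345).

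Within the TCF/LEF sum, LEF1 held 39.3% ± 0.0106 with control siRNA and 30.3% ± 0.975 with PRDX2 siRNA (SD, n = 2 each), and TCF7 held 45.4% ± 0.855 and 51.3% ± 2.58 (SD, n = 2 each). LEF1 made up 39.3 and 39.4% of the TPM in the control libraries and 31.0 and 29.6% in the libraries with PRDX2 siRNA, so the groups did not overlap. An exact permutation test of 2 against 2 libraries cannot go below 0.333, so these shares are given as values with no test.

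Of the coactivators in SW480, BCL9L stood at 171 and 246 CPM in control libraries and at 292 and 291 CPM after PRDX2 siRNA, with a log2 fold change of 0.48 ± 0.16 (SE, n = 2 per group, edgeR adjusted p = 0.117). PYGO2 stood at 48.1 and 49.9 CPM and then at 61.4 and 59.3 CPM, with 0.30 ± 0.12 (SE, n = 2 per group, edgeR adjusted p = 0.158). In these 2 genes the PRDX2 siRNA duplicates were close and the control duplicates of BCL9L were not. BCL9 stood at 21.8 and 28.5 CPM and then at 28.2 and 27.1 CPM, with 0.14 ± 0.16 (SE, n = 2 per group, edgeR adjusted p = 0.615). PYGO1 had 6 counts in each control library and 11 in each library with PRDX2 siRNA, with 0.74 ± 0.46 (SE, n = 2 per group, edgeR adjusted p = 0.344).

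**Figure D2:**
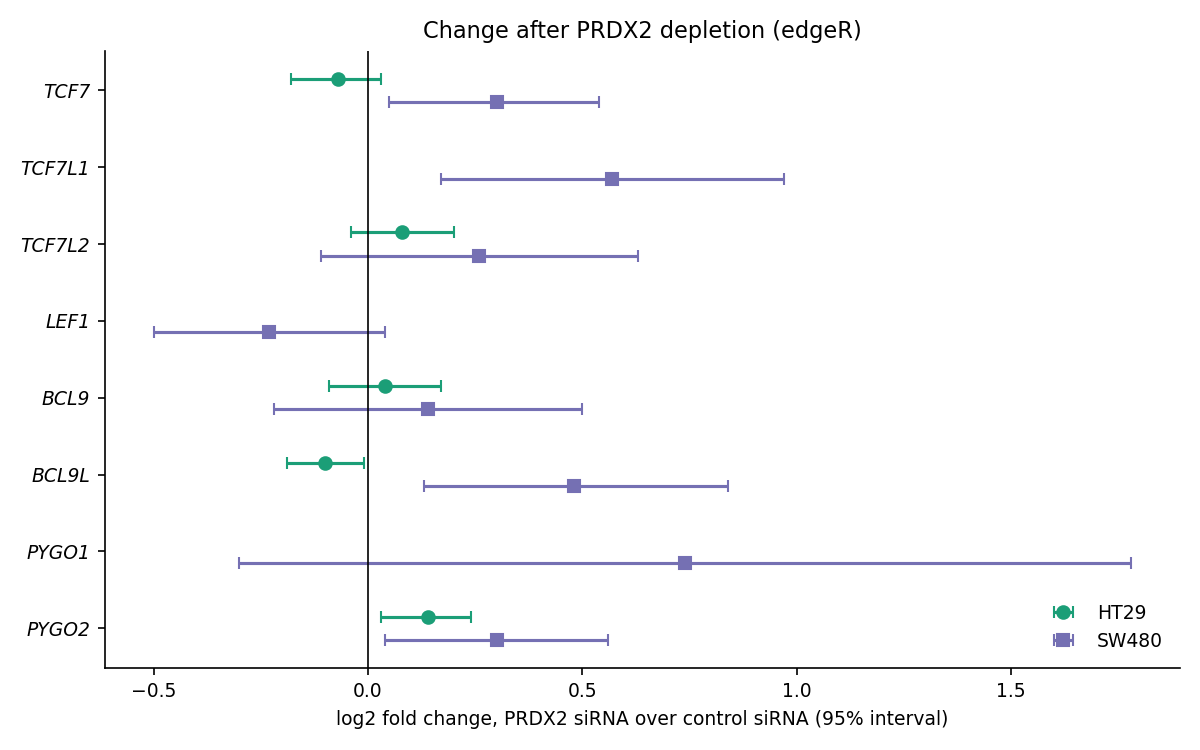
Points give the edgeR log2 fold change of PRDX2 siRNA over control siRNA with its 95% interval for each member in HT29 (circles) and SW480 (squares). TCF7L1, LEF1 and PYGO1 did not pass the filter in HT29 and have no circle, and the SW480 intervals are wider than those of HT29.

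The SW480 calls depended on which libraries were kept and on how they were processed. Without SW480 control replicate 1, 5 members passed: TCF7 (0.25, edgeR adjusted p = 0.000258), TCF7L1 (0.49, edgeR adjusted p = 0.0343), BCL9L (0.24, edgeR adjusted p = 0.000512), PYGO2 (0.27, edgeR adjusted p = 0.00601) and LEF1 (-0.32, edgeR adjusted p = 6.65e-05). Without SW480 control replicate 2, 6 passed, TCF7 (0.34), TCF7L1 (0.65), BCL9L (0.77), PYGO2 (0.33), BCL9 (0.34) and TCF7L2 (0.41), with edgeR adjusted p-values up to 0.0207. In these fits the lone control library is assumed to vary like the others, and 3437 and 7364 genes were called in place of 466. Without either library with PRDX2 siRNA, 0 members passed. With GC correction TCF7L1 (0.55, edgeR adjusted p = 0.0293) and BCL9L (0.26, edgeR adjusted p = 0.0418) passed, and the TCF7 value was 0.15 (edgeR adjusted p = 0.137). When all 8 libraries shared 1 estimate of the spread, TCF7, TCF7L1, BCL9L and PYGO2 passed, with edgeR adjusted p-values of 0.0245 to 0.0332. TCF7, TCF7L1, TCF7L2, BCL9L and PYGO2 kept a positive value in all 13 alternatives, and LEF1 kept a negative one. BCL9 ran from -0.04 to 0.34. These alternatives reuse the same SW480 libraries.

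**Figure D3:**
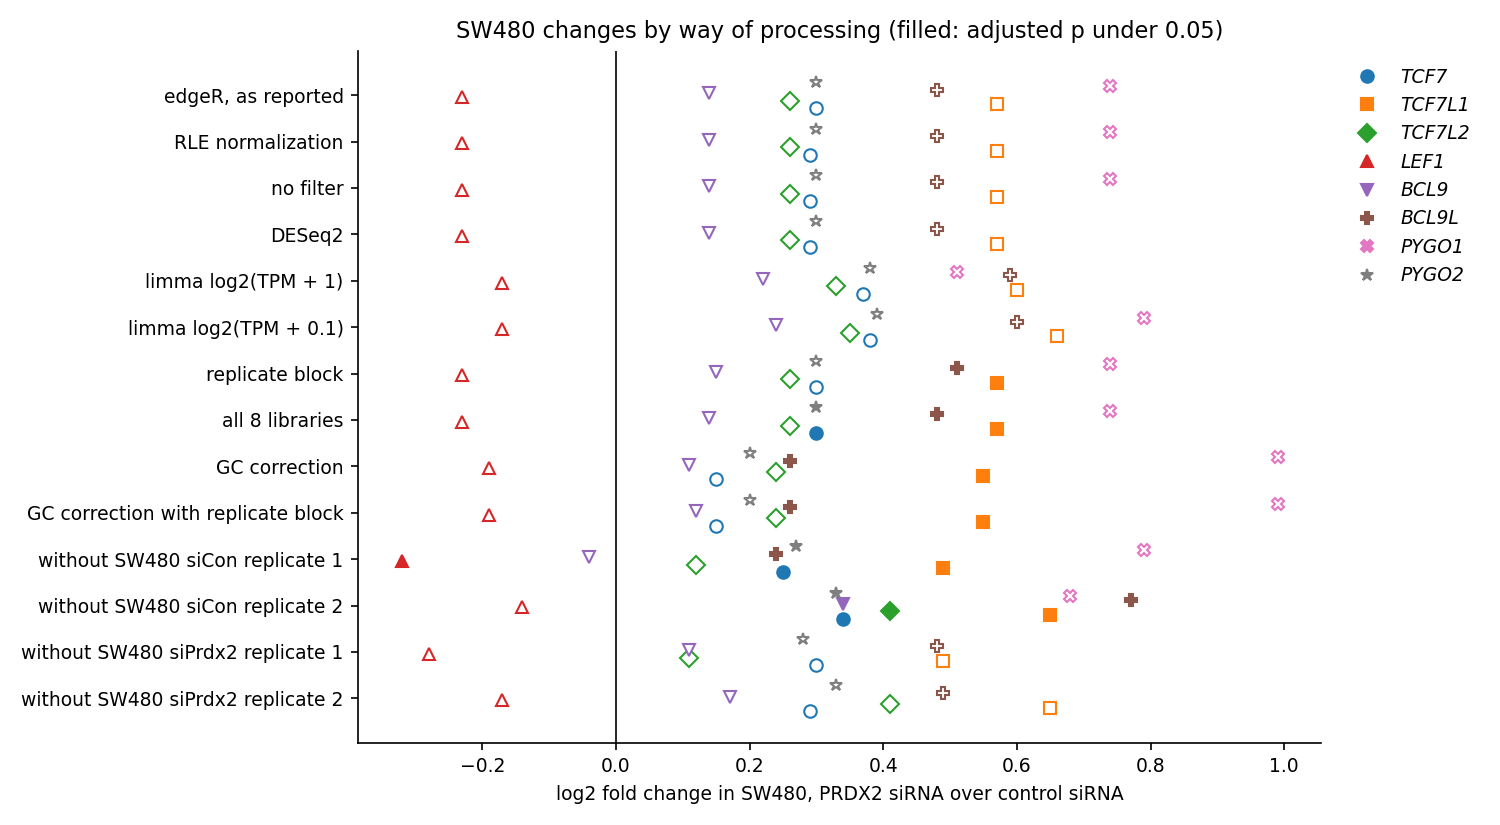
Symbols give the log2 fold change of each member in SW480 (PRDX2 siRNA over control siRNA) under each way of processing, filled where the adjusted p was under 0.05. The BCL9L value runs from 0.24 to 0.77, and most filled symbols stand in the fits that leave out 1 control library.

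The effects of PRDX2 siRNA in HT29 and SW480 were then compared directly, as HT29 minus SW480, using all 8 libraries. Of the 8 members 0 were called by edgeR, where 1.12% of 14772 genes were called. At an unadjusted p under 0.05 there were 3 (TCF7, LEF1 and BCL9L), with no share of all genes counted at that threshold. DESeq2 and limma on log2(TPM + 1) each called 0. LEF1, TCF7L1 and PYGO1 were below the filter in HT29 and entered this fit only through SW480. PYGO1 had 0 counts in every HT29 library. The comparison thus bears only on the 5 members that passed the filter in both lines, TCF7 and BCL9L among them. In 3 members (TCF7, BCL9L and LEF1) the libraries lay apart in opposite directions in the 2 lines, as in 11.4% of the genes tested. The difference was -0.37 ± 0.11 for TCF7 (SE, edgeR adjusted p = 0.115), -0.58 ± 0.19 for BCL9L (SE, edgeR adjusted p = 0.143) and -0.16 ± 0.11 for PYGO2 (SE, edgeR adjusted p = 0.441). TCF7 and BCL9L passed without SW480 control replicate 1 (-0.32 and -0.34, edgeR adjusted p = 0.00922 and 0.00221) and without SW480 control replicate 2 (-0.43 and -0.88, edgeR adjusted p = 0.000247 and 1.65e-08). LEF1 passed only without SW480 control replicate 2 (2.99, edgeR adjusted p = 0.0259), on the 1 and 9 counts of its HT29 groups. BCL9L also passed with GC correction (-0.35, edgeR adjusted p = 0.0262).

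The other nuclear partners of TCF/LEF and β-catenin were described by 4 lists. Of 12 tested corepressors and inhibitors in HT29, 3 rose and 2 fell, with a list median of 0.06. These 5 of 12 stand beside 17.6% of all genes called, and DESeq2 and limma on log2(TPM + 1) called 1 each. HIPK2, a kinase that can phosphorylate TCF/LEF factors, rose by 0.32 on the log2 scale (edgeR adjusted p = 0.00239), the corepressor CTBP2 by 0.14 (edgeR adjusted p = 0.0205) and the Groucho protein TLE4 by 0.43 (edgeR adjusted p = 0.0273). The 2 that fell, named after their values were seen, were TLE1 (-0.21, edgeR adjusted p = 0.0274) and AES (-0.14, edgeR adjusted p = 0.0354), a short Groucho relative. Among the Groucho genes that were called, 1 was thus higher and 2 were lower.

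Of 20 chromatin, Mediator and other coactivators in HT29, 4 rose and 0 fell, with a list median of 0.03. These 4 of 20 are close to the 17.6% of all genes called, and DESeq2 called 1 and limma 3. EP300, a histone acetyltransferase that β-catenin recruits, rose by 0.28 (edgeR adjusted p = 0.000402), the Mediator kinase CDK8 by 0.26 (edgeR adjusted p = 0.0175) and the Mediator subunit MED12 by 0.18 (edgeR adjusted p = 0.0242). RUVBL1, named after its value was seen, rose by 0.12 (edgeR adjusted p = 0.0497). Of the 9 calls in these 2 lists, EP300 passed in 12 of 13 alternatives, HIPK2 in 10, and the others in 6 to 9. The other 7 each lost the call in at least 2 of the 4 fits without 1 HT29 library: CTBP2 without control replicate 1 (0.13) or PRDX2 siRNA replicate 1 (0.12), MED12 without control replicate 1 (0.13) or PRDX2 siRNA replicate 2 (0.16), and TLE4 (0.38 and 0.34) and CDK8 (0.21 and 0.17) without control replicate 2 or PRDX2 siRNA replicate 2. AES lost it without control replicate 2 (-0.12) or PRDX2 siRNA replicate 1 (-0.08), TLE1 in all but the fit without control replicate 1 (-0.18 to -0.23), and RUVBL1 in all 4 (0.10 to 0.15). None of the 6 tested LDB1, SSBP and ARID1 partners was called by edgeR in HT29. Among these 6, 1 had an unadjusted p under 0.05, DESeq2 called 0 and limma called 1.

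In SW480 edgeR called 0 of 13 corepressors and inhibitors, 0 of 20 coactivators and 0 of 6 LDB1, SSBP and ARID1 partners, where 3.3% of all genes were called. At an unadjusted p under 0.05 there were 4, 7 and 0, with no share of all genes counted at that threshold. DESeq2 and limma called 0 in each list. Between the control cells of the lines, 3 corepressors and inhibitors were higher in SW480 and 6 lower, 4 coactivators were higher and 12 lower, and all 6 tested LDB1, SSBP and ARID1 partners were lower by edgeR, with list medians of -0.19, -0.37 and -0.71 against 0.06 over all genes. These 9 of 13, 16 of 20 and 6 of 6 stand beside 73.2% of all genes called in that comparison.

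The last list held 12 Wnt target genes, which overlaps with a set the study chose on these libraries (CCND1 and AXIN2 among them), so its direction is not independent evidence. In HT29, 1 of 11 tested rose and 3 fell, where 17.6% of all genes were called, and DESeq2 called 3 and limma 4. NKD1, a feedback inhibitor, rose by 1.96 (edgeR adjusted p = 2.01e-07). DESeq2 gave NKD1 no adjusted p in HT29, and limma gave 1.34 on log2(TPM + 1) and 1.93 on log2(TPM + 0.1). CCND1, which encodes cyclin D1, fell by 0.52 (edgeR adjusted p = 1.44e-07), and the feedback scaffold AXIN2 fell by 0.60 (edgeR adjusted p = 2.45e-07). DKK1, a secreted antagonist named after its value was seen, fell by 0.65 (edgeR adjusted p = 2.78e-06). In SW480 only CCND1 of 12 passed, falling by 0.59 on the log2 scale (edgeR adjusted p = 0.00881), a call that was lost without SW480 PRDX2 siRNA replicate 1 or 2 (-0.59 in both, edgeR adjusted p = 0.283 and 0.326). In control cells all 12 differed between the lines, where 73.2% of all genes did, 8 higher and 4 lower in SW480, with a list median of 2.52.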

How the data were processed

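The labels and the study's methods describe TruSeq mRNA libraries and paired-end sequencing. The authors aligned reads to hg19 with MapSplice and estimated abundances of refGene transcripts with RSEM; the methods describe this for HT29, and the SW480 tables have the same columns. The expected counts deposited by the authors are RSEM estimates and were rounded to whole numbers (2.93 to 3.54% were not whole). The TPM deposited by the authors is scaled to the same total per library, and the FPKM deposited by the authors was not used. Totals were 8857442 to 10164137 expected counts per library.

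Counts were tested with edgeR 4.0.16 (quasi-likelihood, TMM, at least 10 counts in at least 2 libraries, Benjamini-Hochberg over all genes tested, threshold 0.05), within each line for PRDX2 siRNA against control siRNA, and over all 8 libraries for the 2 comparisons between lines. Alternatives were RLE scaling, no filter, DESeq2 1.42.0, limma 3.58.1 (TPM on a log2 scale with a pseudocount of 1 or of 0.1), a replicate block, all 8 libraries together, the 4 control libraries alone, GC correction (loess, span 0.5, for the 91.4% of genes with a value), and leaving out each library. The scripts were tested on simulated counts. The members and lists were chosen with earlier results of these data known. Named genes were all members, PRDX2, CTNNB1 and up to 3 called genes of smallest p from each list in each line; the other called list genes were named after their values were seen. Gene sequences came from RefSeq (GRCh38.p14).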

Additional observations from a re-analysis of the deposited data

Results flagged for a closer look

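In 3 members both libraries with PRDX2 siRNA moved one way in HT29 and the opposite way in SW480, as in 11.4% of the genes tested. The difference of the log2 fold change (HT29 minus SW480) was -0.37 for TCF7 (edgeR adjusted p = 0.115) and -0.58 for BCL9L (edgeR adjusted p = 0.143), neither of which passed the test. It was 3.09 for LEF1 (edgeR adjusted p = 0.13), which rests on 1 count in the HT29 control group and 9 in the HT29 group with PRDX2 siRNA.

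In 3 other named genes the difference itself passed the test. It was 0.84 for PRDX2 (edgeR adjusted p = 0.0128), whose level dropped further in SW480, 2.26 for NKD1 (edgeR adjusted p = 0.000165), and -0.66 for AXIN2 (edgeR adjusted p = 0.00888). In SW480 itself NKD1 had a log2 fold change of -0.30 (edgeR adjusted p = 0.122) and AXIN2 of 0.06 (edgeR adjusted p = 0.694). NKD1 passed in SW480 in 5 of 13 alternatives, with GC correction (-0.48 without and with the block, edgeR adjusted p = 0.000643 and 1.64e-09), with all 8 libraries (-0.29, edgeR adjusted p = 0.0307) and without control replicate 1 or 2 (-0.38 and -0.21, edgeR adjusted p = 1.2e-12 and 1.95e-05). AXIN2 passed there in 1 of 13, without control replicate 2 (0.09, edgeR adjusted p = 0.00933). The NKD1 difference passed in 16 of 16 alternatives, those of PRDX2 and AXIN2 in 10 of 16.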

How the results depend on the processing

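In HT29 the count of called members (0 of 5) became 1 with either limma fit, 1 with GC correction, 1 with GC correction and the block together, and 0 to 1 when single libraries were left out. The count of called genes, 2279, became 853 with DESeq2 and 185 with all 8 libraries. In SW480 the count of called members (0 of 8) became 4 with all 8 libraries, 2 with GC correction, 2 with GC correction and the block, and 0 to 6 when single libraries were left out. The 466 called genes became 214 and 177 with limma, 2415 with all 8 libraries, 2160 with GC correction, 2998 with GC correction and the block, and 87 to 7364 without single libraries. For the difference between lines the 166 called genes became 267 with no filter, 298 with DESeq2, 103 and 43 with limma, 900 with GC correction, 954 with GC correction and the block, and 6 to 5237 without single libraries. There 1 member, BCL9L, passed with GC correction and 1 with GC correction and the block, and 0 to 3 without single libraries. The cause was not tested.

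Same-numbered libraries deviated together only weakly (correlation across genes 0.10 in HT29 and 0.11 in SW480, with 2 pairs each). So few pairs cannot tell whether they share more than a number. With the replicate block, 2 members passed in HT29 (PYGO2 and BCL9L) among 2889 genes, 2 in SW480 (TCF7L1 and BCL9L) among 1727 genes, and 0 for the difference among 196 genes.

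Some values changed sign with the processing. Leaving out single libraries, BCL9 ran from -0.04 to 0.34 in SW480 and from -0.32 to 0.08 for the difference, with the sign changed without SW480 control replicate 1. The TCF7L1 difference of 0.02 became -0.37 and -0.07 with limma, and ran from -0.31 to 0.45 without single libraries. Between control cells TCF7 gave 0.02 with both limma fits and 0.03 with GC correction, and BCL9L 0.12 with GC correction and -0.42 to 0.12 without single libraries. AXIN2 in SW480 gave -0.03 with GC correction, with or without the block. TPM scaling moved the median of all genes between lines from 0.06 to 0.16 and 0.18, without changing the direction of the 6 called members. DESeq2 gave no adjusted p for PYGO1 in SW480, for PYGO1 and TCF7L1 in the difference or for NKD1 in HT29. Counts near 0 limit LEF1, TCF7L1 and PYGO1 in HT29.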
